A study of Mus musculus with 9 samples.

Results

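The mitochondrial ribosomal protein genes are the nuclear genes named Mrpl (large subunit) and Mrps (small subunit), and their mRNAs were followed on the polysomes of mouse oocytes through meiotic maturation. Members were all genes whose symbol starts with Mrpl or Mrps followed by a digit in the array's annotation and that had a probe set annotated to 1 gene symbol. This gave 76 of the 18193 genes measured, 47 Mrpl and 29 Mrps genes, with 156 probe sets in all. Another 4 probe sets naming such a gene beside another gene were left out. Where a gene had several probe sets, it is represented by the brightest of them, by the mean of the 9 arrays.

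Polysome-bound mRNA, the messages loaded with ribosomes, was hybridised to Affymetrix whole-genome mouse arrays, 3 each at 3 stages. The mice had received PMSG, a gonadotropin that makes follicles grow, 48 h before hCG, the ovulatory signal. Oocytes at the germinal vesicle (GV) stage, arrested in prophase, were taken at 0 h of hCG, those in metaphase I (MI) at 4 h, and those in metaphase II (MII), where the egg arrests until fertilisation, at 14 h. The labels give no strain, age or genotype, call the samples biological replicates without saying whether they came from separate animals, and describe the MI samples as pGVB without explanation, so the p-values reflect no more than the spread among these 9 samples.

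Mitochondria carry their own ribosome, which makes the few respiratory-chain subunits encoded by mitochondrial DNA. Its RNAs come from that DNA, but its proteins are encoded in the nucleus, translated on cytosolic ribosomes and imported. The growing oocyte accumulates a very large number of mitochondria, and during maturation many stored and translated messages of the growth phase leave the polysomes while others join them.

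Array medians lay between 12.39 and 13.22 intensity units and the 95th percentiles between 1126 and 1458. The deposited table holds no detection calls, and with 3 arrays a stage precision is limited. Of 12 oocyte markers, 11 were measured, and their summed intensity was 53814 to 57318 on GV, 46362 to 49615 on MI and 26857 to 34121 on MII arrays. They did not all move together. From GV to MII 8 of the 11 had a log2 change below 0 and 3 above, beside 52.1% and 47.9% of all genes. Oosp1 averaged 4035 units at GV and 8663 at MII, and Zp3 8694 and 1982. Of 19 granulosa, cumulus and theca cell markers, 17 were measured, with lowest values of 1 unit for Fshr and Fst. They summed to 1059.9 to 1225 on GV, 1111 to 1606 on MI and 752 to 1109.9 on MII arrays. Single markers differed. By stage, Cyp11a1 averaged 531, 530 and 163 units, Ptx3 14.2, 79.1 and 25.1, Tnfaip6 3.77, 66.4 and 9.65, and Nr5a2 85.2, 129 and 444. From GV to MI 11 of the 17 had a log2 change above 0 and 6 below, beside 50.9% and 49.1% of all genes. The 6 of 7 blood and immune markers measured summed to 158 to 342, 112 to 599 and 614 to 861 in the same order. Of these, Pecam1, an endothelial gene, averaged 190.4, 189 and 661 units by stage, while Ptprc, the common leukocyte antigen, averaged 25.6, 25.1 and 4.94. GV 3 and MI 3 stood apart: the median granulosa marker was at 6.09 and 6.13 on the log2 scale there and at 4.83 to 4.98 on the other arrays, and the geometric mean of the control probe sets was 169.6 and 187, beside 100.8 to 140.0. The part of these markers in any result was not tested, and counts without GV 3 and without MI 3 are given with the results.

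The median level of the family overlapped between GV and MI arrays and was lower on every MII array. The median member stood at 9.65, 9.15 and 9.43 on the GV arrays, 9.23, 9.53 and 8.71 on the MI arrays and 7.63, 7.20 and 6.67 on the MII arrays, as log2(intensity + 16). The median over all genes ran only from 5.42 to 5.74 across the 9 arrays. Of the 76 members, 1 to 3 lay under the array median of all probe sets on each GV and MI array and 8 to 11 on each MII array. Most members were not dim: 73 had a mean over the 9 arrays, MII included, at or above the median gene's 50.7 units. Of the 3 below it, Mrps34 averaged 8.96 units at GV and 12.6 at MI, Mrpl27 24.0 and 36.5, and Mrpl49 55.5 and 62.4. No filter on low values was applied. A polysome signal depends on how much of an mRNA the oocyte holds and on how much of it carries ribosomes, and these, like fewer cells and less RNA per cell, cannot be told apart here.

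**Figure D1:**
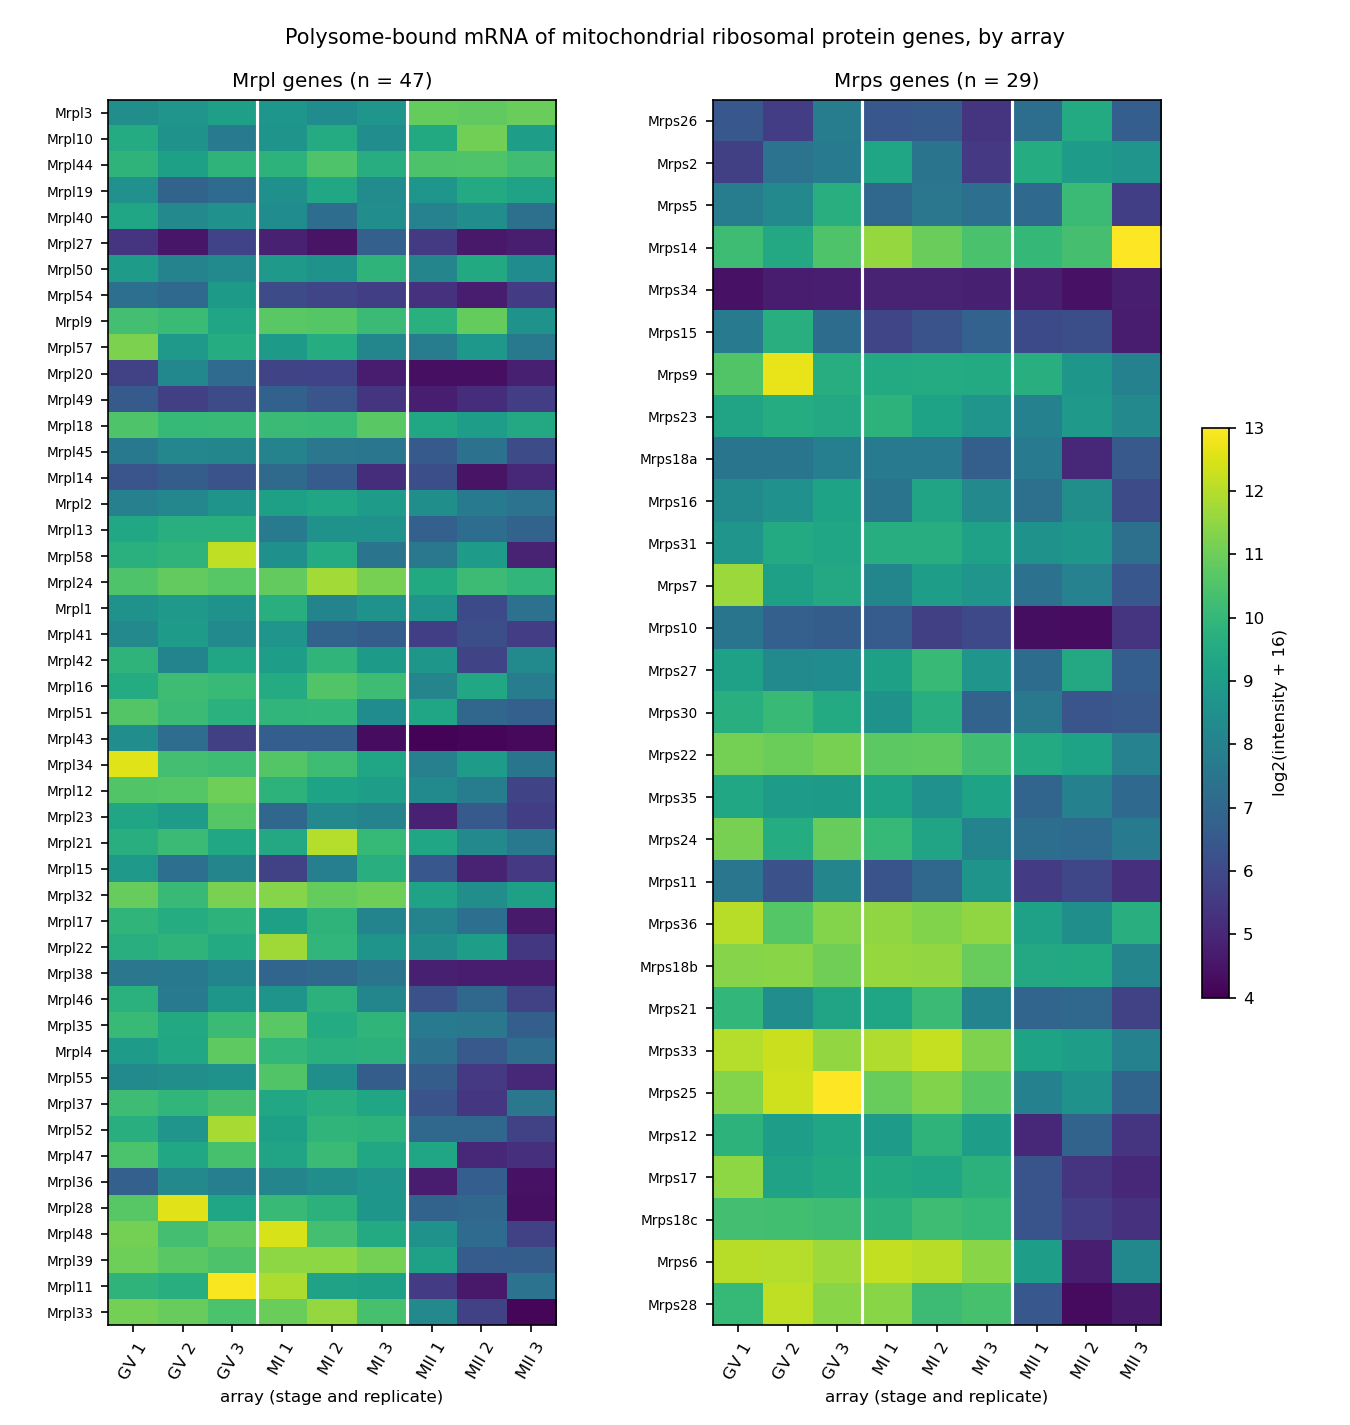
Heat map of log2(intensity + 16) for the 47 Mrpl genes and the 29 Mrps genes in separate panels, with the 9 arrays in columns from GV 1 to MII 3 and genes ordered by their MII minus MI change. Most rows change between the MI and MII columns: the median member stood at 8.71 or above on GV and MI arrays and at 7.63 or below on MII arrays, and Mrpl3 runs the other way.

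Between MI and GV, the first step of maturation, no member passed: 0 rose and 0 fell in limma at a Benjamini-Hochberg adjusted p under 0.05, as among all genes, of which 0% were called in either direction. The median log2 change of the 76 members was -0.13, beside 0.01 for all genes, with 44 members below 0 (beside 49.1% of all genes) and 32 above (beside 50.9%). It was -0.34 without MI 1, -0.30 without MI 2, -0.12 without GV 3 and -0.16 without MI 3, with 0 members passing in each case. At an unadjusted p under 0.05, 9 members were lower (11.8%, beside 3.39% of all genes) and 2 were higher (2.63%, beside 3.74%). For 14 members all 3 MI arrays lay below all 3 GV arrays (18.4%, beside 6.07% of all genes), and for 3 members above (3.95%, beside 6.44%).

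The member with the smallest p in this step was Mrpl13, a large-subunit protein with a bacterial counterpart, at 188, 376 and 381 units on MI arrays, against 651, 788 and 812 on GV arrays. The stages did not overlap, yet its log2 change of -1.27 (SE 0.30) had a limma adjusted p of 0.391 over all genes. Mrpl54, a large-subunit protein that bacteria lack, had 51.8, 43.6 and 35.5 units on MI arrays, against 139.6, 120.1 and 467 on GV arrays (log2 change -1.87, adjusted p = 0.436). Mrpl23, which lines the region of the large subunit where the new chain leaves, had 114, 287 and 245 units on MI arrays, against 627, 491 and 1582 on GV arrays (log2 change -1.89, adjusted p = 0.548). Mrps15, a small-subunit protein that binds ribosomal RNA, had 43.6, 62.7 and 99.0 units on MI arrays, against 194, 796 and 129 on GV arrays (log2 change -1.84, adjusted p = 0.634). In all of these every MI array lay below every GV array. The reverse held for Mrpl2, a core protein of the large subunit, at 541, 631 and 478 units on MI arrays, against 226, 272 and 391 on GV arrays (log2 change 0.88, adjusted p = 0.632). None of the 5 passed.

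Between MII and MI a large share of the family fell. Of the 76 members 26 fell (34.2%), beside 6.83% of all genes, 1 rose (1.32%), beside 2.52% of all genes, and 49 did not pass. The median log2 change was -1.67, a 3.18-fold drop, with quartiles at -2.63 and -0.95, and 68 of 76 estimates lay below 0, beside 51.7% of all genes, whose median was -0.02. At an unadjusted p under 0.05, 48 members were lower (63.2%, beside 13.2% of all genes) and 1 was higher (1.32%, beside 8.39%). Members are brighter than most genes, and among the 9097 genes at or above the median signal 13.3% fell, 4.61% rose and the median change was -0.17. In 47 members (61.8%, beside 15.4% of all genes) all 3 MII arrays lay below all 3 MI arrays, and in 2 members (2.63%, beside 11.6%) above. The number that fell depended on single arrays: it was 15 without MI 2 and 17 without MII 3, 17 from the 6 arrays of these stages alone, 24 without MI 3 and 22 without GV 3. The count over all genes also moved, from 1243 to 645, 752, 872, 1224 and 1126 in the same order.

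Of the small-subunit proteins, Mrps28 had 70.8, 3.21 and 9.35 units on MII arrays, against 2688, 1134 and 1302 on MI arrays, a log2 change of -5.52 (SE 0.72, limma adjusted p = 0.00428). Mrps6, a neighbour of the S18 protein on the small subunit in bacteria, had 516, 10.9 and 276 units on MII arrays, against 4639, 4158 and 2683 on MI arrays (log2 change -4.54, SE 0.96, adjusted p = 0.0246). Both were far below MI on every MII array, but Mrps6 varied widely among MII arrays. Mrps18c, one of 3 mammalian relatives of that S18 protein, gave the smallest p of the family, with 64.4, 33.4 and 22.9 units on MII arrays, against 890, 1169 and 1040 on MI arrays (log2 change -4.28, SE 0.29, adjusted p = 0.000818). Mrps17, an early-binding ribosomal RNA contact in bacteria, had 64.9, 25.3 and 15.9 units on MII arrays, against 691, 632 and 873 on MI arrays (log2 change -3.97, adjusted p = 0.0078). Mrps12, the protein at the decoding centre, had 16.3, 99.5 and 24.9 units on MII arrays, against 472, 916 and 515 on MI arrays (log2 change -3.54, adjusted p = 0.00608). Mrps25, a small-subunit protein that bacteria lack, had 232, 373 and 105 units on MII arrays, against 1922, 2504 and 1638 on MI arrays (log2 change -3.15, adjusted p = 0.0108). In all 6 genes the 3 MII arrays lay below the 3 MI arrays, and the MI minus GV estimates, from -1.25 to -0.03, did not pass. The call for Mrps6 was lost without MI 1 (adjusted p = 0.0766), MI 2 (0.0790) or MII 3 (0.0520), and in the fit of these stages alone (0.0727).

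Of the large-subunit proteins, Mrpl33, a small protein with a bacterial counterpart, had 283, 38.1 and 1.74 units on MII arrays, against 2019, 3046 and 1307 on MI arrays (log2 change -4.94, SE 0.90, limma adjusted p = 0.0151). Mrpl39, which bacteria lack, had 555, 83.1 and 84.8 units on MII arrays, against 2798, 2789 and 2184 on MI arrays (log2 change -3.86, SE 0.63, adjusted p = 0.00976). In both the stages were well apart, with MII 1 the highest of the MII arrays. Mrpl48, also without a bacterial counterpart, had 374, 125 and 37.0 units on MII arrays, against 5582, 1247 and 701 on MI arrays (log2 change -3.59, adjusted p = 0.0437). Mrpl36, the smallest protein of the bacterial large subunit, had 9.68, 86.0 and 5.56 units on MII arrays, against 258, 336 and 397 on MI arrays (log2 change -3.15, adjusted p = 0.0196). These calls were less stable. That for Mrpl33 was lost without MI 2 (adjusted p = 0.0574), and that for Mrpl36 without MI 2 (0.0656), MI 3 (0.0529), MII 1 (0.0608) or MII 3 (0.0655). The call for Mrpl48 was lost without any of GV 1 (0.0667), GV 2 (0.0660), GV 3 (0.0665), MI 1 (0.0977), MI 2 (0.0943), MII 2 (0.107) and MII 3 (0.125), and in the fit of MI and MII alone (0.102). Another Mrpl48 probe set of nearly the same brightness changed by only -1.43, and a dimmer one of Mrpl39 by -1.39.

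Between MII and GV the same 3 MII arrays were set against the immature oocyte. Of the 76 members 41 fell (53.9%), beside 8.94% of all genes, 1 rose (1.32%), beside 5.52% of all genes, and 34 did not pass. The median log2 change was -2.33, a 5.03-fold drop, beside -0.03 for all genes, and 67 of 76 estimates lay below 0, beside 52.1% of all genes. At an unadjusted p under 0.05, 52 members were lower (68.4%, beside 14.9% of all genes) and 3 were higher (3.95%, beside 10.9%). Among genes at or above the median signal 17.5% fell, 10.3% rose and the median was -0.20. All 3 MII arrays lay below all 3 GV arrays in 55 members (72.4%, beside 17.6% of all genes) and above them in 4 members (5.26%, beside 14.3%). The count that fell was 27 without MII 3, 31 without GV 3 and 40 without MI 3, an array that enters this comparison only through the shared estimate of the spread. Over all genes the count moved from 1627 to 1156, 1232 and 1743 in the same order.

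The largest falls from GV to MII again included Mrps28, at 70.8, 3.21 and 9.35 units on MII arrays, against 1026, 4502 and 2680 on GV arrays (log2 change -6.07, SE 0.72, limma adjusted p = 0.00197). Mrpl11, at the base of the stalk that recruits translation factors, had 32.7, 8.22 and 155 units on MII arrays, against 901, 788 and 7703 on GV arrays (log2 change -4.93, adjusted p = 0.0263). Mrpl28, a large-subunit protein shared with bacteria, had 99.9, 109.7 and 4.68 units on MII arrays, against 1594, 6248 and 613 on GV arrays (log2 change -4.79, adjusted p = 0.0141). Single GV arrays stood high in each of these, GV 2 for Mrps28 and Mrpl28 and GV 3 for Mrpl11, and the call for Mrpl11 was lost without GV 3 (adjusted p = 0.0684), MII 1 (0.0765) or MII 2 (0.0842). Mrps25 had 232, 373 and 105 units on MII arrays, against 2568, 5245 and 8062 on GV arrays (log2 change -4.40, adjusted p = 0.00203). Mrpl23 had 12.3, 76.7 and 34.8 units on MII arrays, against 627, 491 and 1582 on GV arrays (log2 change -3.98, adjusted p = 0.00431). Mrpl37, a large-subunit protein that bacteria lack, had 64.1, 26.8 and 173 units on MII arrays, against 1164, 961 and 1283 on GV arrays (log2 change -3.72, adjusted p = 0.0027). In these 3 too every MII array was below every GV array. The 10 largest falls also held Mrpl33 (-4.77), Mrps6 (-4.57), Mrps18c (-4.51) and Mrps17 (-4.47), whose adjusted p lay between 0.000455 and 0.0168; that of Mrps6 was 0.0509 without GV 1 and 0.0530 without GV 2.

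Some members went down at each step. For 10 of the 76, all MI arrays lay below all GV arrays and all MII arrays below all MI arrays, which held for 1.57% of all genes. They were Mrpl12, Mrpl13, Mrpl23, Mrpl37, Mrpl38, Mrpl54, Mrps7, Mrps10, Mrps22 and Mrps25, a list read off the arrays with no test. Mrpl12 is the stalk protein of the large subunit. It had 1492, 1571 and 2067 units on GV arrays, 884, 585 and 505 on MI arrays and 289, 211 and 41.1 on MII arrays. Mrpl38, a large-subunit protein that bacteria lack, had 176, 185 and 249.7 units on GV arrays, 105, 124 and 161 on MI arrays and 11.7, 9.56 and 9.94 on MII arrays. In both the descent covered all 9 arrays, with the wider gap before MII on the log scale.

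Mrpl and Mrps genes were set side by side. From MI to MII 14 of 47 Mrpl genes fell (29.8%) with a median log2 change of -1.75. Of 29 Mrps genes 12 fell (41.4%) with a median of -1.54, beside 6.83% of all genes. The 1 member that rose was an Mrpl gene. From GV to MII 24 Mrpl genes fell (51.1%, median -2.47) and 17 Mrps genes fell (58.6%, median -2.22), beside 8.94% of all genes. From GV to MI the medians were 0.00 for Mrpl (-0.31 without MI 1) and -0.23 for Mrps genes, with none passing. In this step 23 of 47 Mrpl estimates (48.9%) and 21 of 29 Mrps estimates (72.4%) lay below 0, beside 49.1% of all genes. Mrps genes had the larger share of calls and Mrpl genes the lower median in both comparisons with MII. The difference of the medians, Mrpl minus Mrps, was -0.21 in MII minus MI and -0.25 in MII minus GV, but ran from -0.40 to 0.09 and from -0.29 to 0.14 when single arrays were left out. When all probe sets of a gene were averaged, dim ones included, the order of the medians turned round. They were -1.08 for Mrpl and -1.36 for Mrps genes in MII minus MI (difference 0.28). In MII minus GV they were -1.30 and -1.40 (difference 0.10), so the sign was not stable. On MII 1, MII 2 and MII 3 the Mrpl median minus the Mrps median was 0.59, -1.003 and -0.03 in log2 level, against -0.22, 0.01 and -0.02 on the MI arrays, so the MII arrays did not share a direction. Members are not replicates, so no p is given for the families.

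**Figure D2:**
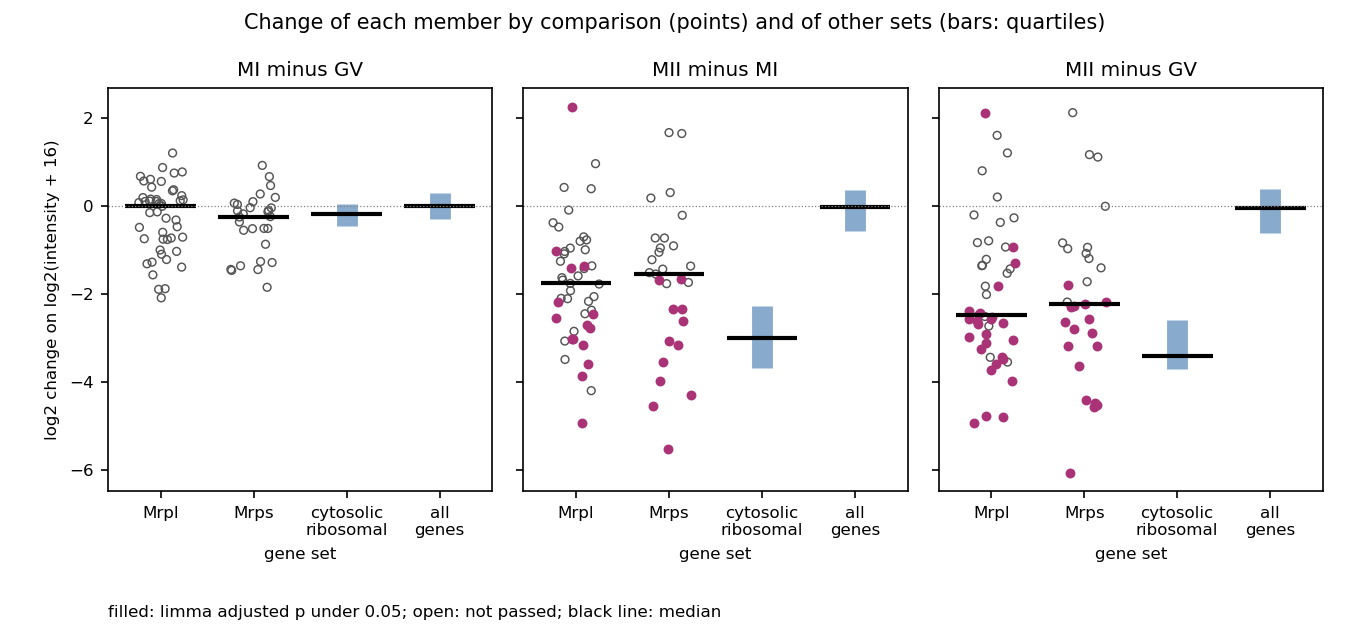
Log2 change of each Mrpl and Mrps gene in MI minus GV, MII minus MI and MII minus GV, filled where limma's adjusted p was under 0.05, with bars for the quartiles and lines for the median of cytosolic ribosomal protein genes and of all genes. The medians of Mrpl and Mrps genes are 0.00 and -0.23 in the first comparison, -1.75 and -1.54 in the second and -2.47 and -2.22 in the third.

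The symbol does not always name the subunit in which a protein sits. By structure, Mrps30 and Mrps18a are part of the large subunit, and Mrps36 is now assigned to the oxoglutarate dehydrogenase complex and not to the ribosome. Sorted this way, 14 of 49 large-subunit genes (28.6%) and 11 of 26 small-subunit genes (42.3%) fell from MI to MII, beside 6.83% of all genes. Their medians were -1.68 and -1.58. From GV to MII 25 (51%) and 15 (57.7%) fell, beside 8.94% of all genes, with medians of -2.47 and -2.22. The split between proteins that the ribosome nomenclature pairs with a bacterial protein and those it numbers as mitochondrial, Mrps18a and Mrps18b included, gave medians of -2.05 (29 genes, 8 fell) and -1.56 (20 genes, 6 fell) in the large subunit from MI to MII. In the small subunit they were -1.58 in both classes, where 6 of 16 and 5 of 10 fell. The shares that fell were 27.6% and 30% in the large subunit and 37.5% and 50% in the small subunit, beside 6.83% of all genes. Mrps36 itself had 4158, 1574 and 2532 units on GV arrays, 2876, 2494 and 2894 on MI arrays and 555, 342 and 800 on MII arrays, and fell by 2.33 on the log2 scale from MI to MII (limma adjusted p = 0.0136).

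The 3 S18 paralogs differed in how far they moved. Mrps18c is described above. Mrps18b, in the small subunit, had 672, 698 and 258 units on MII arrays, against 3031, 2994 and 1896 on MI arrays (log2 change -2.34, SE 0.40, limma adjusted p = 0.0118). Mrps18a, in the large subunit, had 199, 17.0 and 75.1 units on MII arrays, against 189, 198 and 88.9 on MI arrays, and the stages overlapped (log2 change -0.94, 95% interval -2.40 to 0.51, adjusted p = 0.471). Against GV the log2 changes at MII were -4.51 for Mrps18c (adjusted p = 0.000455), -2.27 for Mrps18b (0.00853) and -1.19 for Mrps18a (0.299). At MI minus GV the 3 estimates were -0.23, 0.07 and -0.24 and none passed. Those for Mrps18b and Mrps18a changed sign with single arrays, to -0.04 for Mrps18b without GV 3 or MI 1, to -0.03 without MI 2, and to 0.09 for Mrps18a without MI 3. The differences between the paralogs were not tested.

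Mrps30, the other S-named protein of the large subunit, had 776, 1046 and 700.5 units on GV arrays, 374, 779.6 and 101 on MI arrays and 179, 67.4 and 75.3 on MII arrays. The GV arrays were all above the MII arrays, and MI 3 alone of the MI arrays lay in the MII range. Its MII minus GV change of -2.89 passed (limma adjusted p = 0.0238), and its changes at MI minus GV (-1.35, adjusted p = 0.762) and MII minus MI (-1.54, adjusted p = 0.229) did not. The MII minus GV call was lost without GV 1 (adjusted p = 0.0611), GV 2 (0.0749), GV 3 (0.0589), MII 2 (0.0765) or MII 3 (0.0793), and without MI 3, where this gene was low, the MII minus MI change was -2.29 and passed (0.0328).

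A single member rose. Mrpl3, a large-subunit protein whose bacterial counterpart reaches to the peptidyl transferase centre and is among the first to bind the ribosomal RNA, had 334, 401 and 522 units on GV arrays, 413, 313 and 397 on MI arrays and 1859.8, 1776 and 1933 on MII arrays. GV and MI overlapped, and every MII array was above all of them. The MII minus MI change was 2.27 on the log2 scale (SE 0.23, 4.83-fold, limma adjusted p = 0.00174), the MII minus GV change 2.13 (SE 0.23, 4.37-fold, adjusted p = 0.00144), and the MI minus GV change -0.14 (95% interval -0.66 to 0.38). The rise passed under every alternative run and without each array, with adjusted p between 0.00173 and 0.0272 for MII minus MI.

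**Figure D3:**
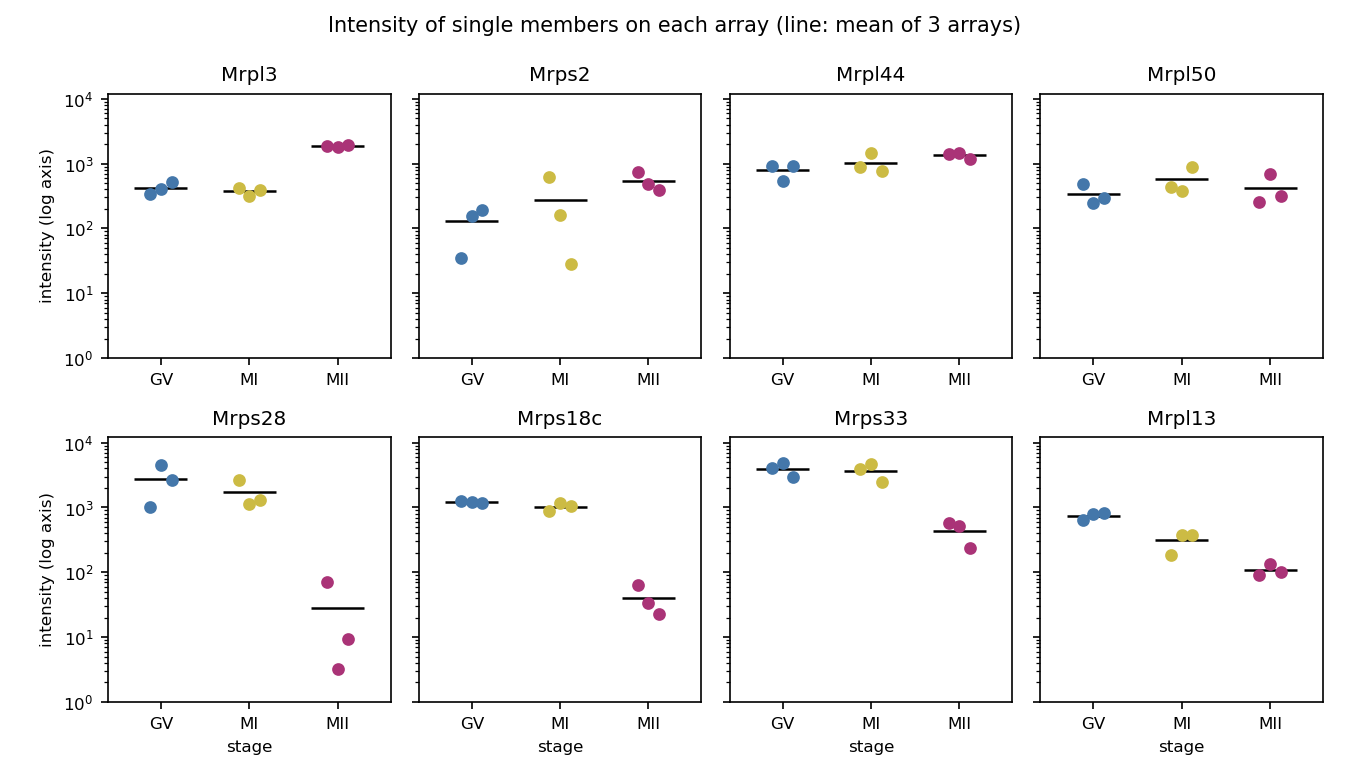
Intensity (log axis) on each of the 9 arrays for Mrpl3, Mrps2, Mrpl44, Mrpl50, Mrps28, Mrps18c, Mrps33 and Mrpl13, with a line at each stage mean. Mrpl3 lies at 1776 or above on the MII arrays, Mrpl50 has overlapping stages, Mrps28 and Mrps18c reach at most 70.8 and 64.4 on MII arrays, and Mrpl13 is lower at each step.

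A further 7 members had estimates above 0 from MI to MII without passing. Mrps26, a small-subunit protein that bacteria lack, had 135, 711 and 87.1 units on MII arrays, against 71.4, 78.6 and 25.8 on MI arrays; all MII arrays were higher, MII 2 by far (log2 change 1.68, limma adjusted p = 0.294). Mrps2, a small-subunit protein shared with bacteria, had 35.6, 158 and 193 units on GV arrays, 623, 159.7 and 28.7 on MI arrays and 752, 483 and 394 on MII arrays. The MII arrays overlapped with the MI arrays but not with the GV arrays (log2 change 1.66 against MI, adjusted p = 0.378, and 2.13 against GV, adjusted p = 0.198). Mrpl10, which anchors the stalk protein Mrpl12, had 685, 2138 and 500.0 units on MII arrays, against 392, 729.8 and 324 on MI arrays (log2 change 0.97, adjusted p = 0.474). The other 4 were Mrpl44 (0.43), Mrpl19 (0.40), Mrps5 (0.31) and Mrps14 (0.19), with adjusted p from 0.521 to 0.939.

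Mrpl19 and Mrpl44 came closest to a rise over the whole of maturation. Mrpl19, a large-subunit protein at the interface of the subunits in bacteria, had 412, 711 and 569 units on MII arrays, against 362, 101 and 127 on GV arrays (log2 change 1.62, limma adjusted p = 0.0664). It passed when dim genes were left out (adjusted p = 0.0444), after quantile normalisation (0.0400), when arrays were scaled to a common 95th percentile (0.0314), when a gene's probe sets were averaged (0.0325) and without GV 1 (0.0184). Mrpl44, which carries a fold of the RNase III type, had 1412, 1466 and 1179 units on MII arrays, against 907, 535 and 908 on GV arrays (log2 change 0.81, adjusted p = 0.145), and passed after quantile normalisation (0.0458), at a common 95th percentile (0.0417) and when probe sets were averaged (0.0327).

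Only 1 member with signal at or above the median gene stayed within 0.5 on the log2 scale of both earlier stages at MII. Mrpl50, a large-subunit protein that bacteria lack, had 485, 243 and 295 units on GV arrays, 442, 381 and 901 on MI arrays and 255, 687 and 313 on MII arrays. All stages overlapped, with MI 3 and MII 2 the highest. The interval of its change was -1.56 to 0.62 for MII minus MI (estimate -0.47) and -0.88 to 1.31 for MII minus GV (estimate 0.21) and both intervals hold changes in either direction. Its estimate was 0.01 for MII minus MI when its probe sets were averaged, and -0.20 for MII minus GV without MII 2. The remaining members that did not pass include estimates as low as -4.19 (Mrpl11, MII minus MI, adjusted p = 0.0646), so a missed threshold is no sign of a steady level. In 4 members (Mrpl20, Mrpl38, Mrpl43 and Mrps34) every MII array lay under the array median, and on the log2(intensity + 16) scale changes into that range are understated.

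A gene's other probe sets gave another reading. Of 41 further probe sets with a mean at or above the median gene, from 25 genes, 34 had the sign of the brighter one in MII minus MI and 7 had the other sign, and the same numbers held for MII minus GV. For members that fell, 9 of 10 agreed in sign in MII minus MI and 16 of 18 in MII minus GV. The exception in MII minus MI was Mrpl38, whose other probe set changed by 0.91. In MII minus GV the exceptions were Mrpl38 (-3.04 and 0.80) and Mrpl35 (-2.56 and 0.82). Where the sign agreed, the size could still differ in MII minus MI. Another probe set gave -1.43 for Mrpl48 (brightest -3.59), -1.39 for Mrpl39 (-3.86) and -1.77 for Mrps25 (-3.15). For Mrps6 it gave -4.38 (-4.54). Mrpl3 had log2 changes of 2.27, 3.66 and 0.63 in its 3 brighter probe sets and Mrpl44 of 0.43, 0.40, 0.93 and 0.15. The pairs for Mrps2 (1.66 and 1.17) also agreed in sign, while those for Mrpl1 (-1.41 and 1.89), Mrpl50 (-0.47 and 0.50) and Mrps14 (0.19 and -1.03) did not. For Mrps5, at 0.31 in its brightest probe set, the other 4 gave -0.05, -1.79, 0.07 and -0.08. Another 39 dimmer probe sets were left out of these counts. When all probe sets of a gene were averaged, these dimmer ones included, the family's median log2 change was -1.16 in MII minus MI and -1.38 in MII minus GV.

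**Figure D4:**
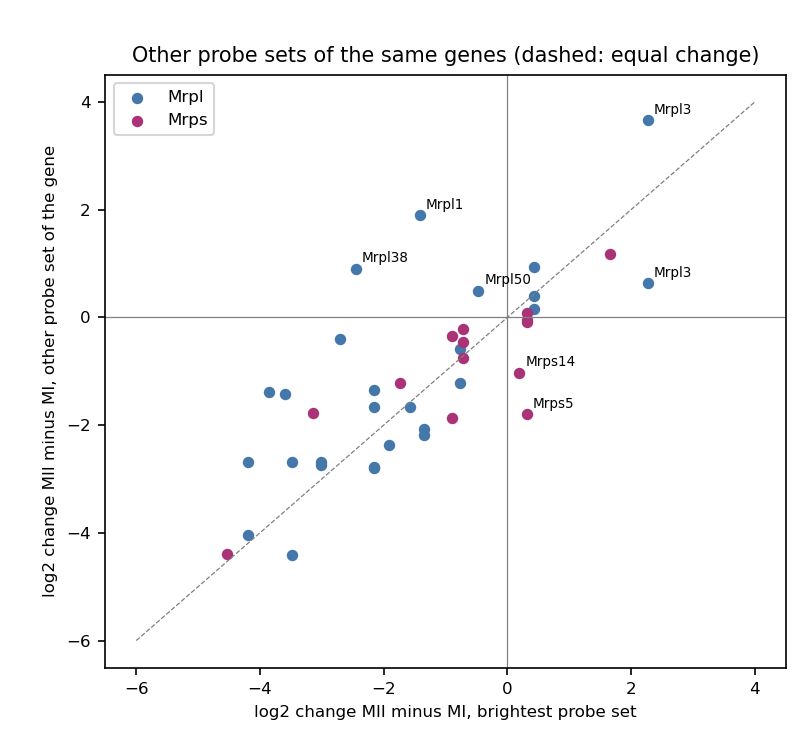
MII minus MI log2 change of each further probe set (vertical axis) against that of the gene's brightest probe set (horizontal axis), Mrpl genes in blue and Mrps genes in purple, with a dashed line of equality. Of the 41 points 34 share the sign of the brightest probe set.

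Promoters in RefSeq (GRCm38.p6, 250 bases before to 50 after the start) were held for 67 of the 76 members. Nuclear genes for mitochondrial proteins are known to carry sites for ETS-type factors such as GABPA, for NRF1 and for YY1, so short forms of their motifs were searched on both strands. The ETS-type letters were CCGGAAG. Those for YY1 were AAGATGGCG, which can overlap with the ETS-type letters in a shared AAG. The ETS-type letters were in 25 of 67 members (37.3%), beside 15.0% of the 14452 genes tested with a promoter entry. They were in 10 of 21 members that fell from MI to MII (47.6%), in 14 of 45 that did not pass (31.1%) and in Mrpl3. The NRF1 motif was in 3 members (4.48%, beside 1.75% of all promoters) and the YY1 letters in 8 (11.9%, beside 2.53%). A match describes these letters and is neither a site nor a cause. The 200 bases before the start are shown for the member that rose and for the member that fell with the smallest adjusted p, Mrpl3 at chr9:105053068-105053267 and Mrps18c at chr5:100798559-100798758, both on the plus strand. Capitals mark the ETS-type letters, which Mrps18c carries on the other strand, in reverse complement. They begin at position -19 from the start in Mrpl3 and at position -156 in Mrps18c.
Mrpl3: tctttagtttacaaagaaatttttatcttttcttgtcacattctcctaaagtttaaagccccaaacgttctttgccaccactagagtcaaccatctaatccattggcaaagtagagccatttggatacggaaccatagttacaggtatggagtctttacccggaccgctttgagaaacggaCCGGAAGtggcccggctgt
Mrps18c: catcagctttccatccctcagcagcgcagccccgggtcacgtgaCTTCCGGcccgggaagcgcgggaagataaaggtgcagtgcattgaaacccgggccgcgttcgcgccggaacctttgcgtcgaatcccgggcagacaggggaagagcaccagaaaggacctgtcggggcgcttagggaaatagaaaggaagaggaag

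Both genes hold the motif and were chosen by their changes, and whether the motif bears on a change was not tested. Shares of members and of all genes are given as counted, with no test, and were not counted among brighter genes alone.

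Other genes of mitochondrial translation were read from lists of ribosome proteins with other names, translation factors and assembly factors. Of 4 mitoribosome proteins with other symbols, 1 fell from MI to MII (25%, beside 6.83% of all genes; median -2.08) and 3 from GV to MII (75%, beside 8.94%; median -2.98). Gadd45gip1, a large-subunit protein, had 144, 186 and 28.8 units on MII arrays, against 680.0, 1334 and 798 on MI arrays (log2 change -3.02, limma adjusted p = 0.0212). Against GV it fell by 4.18 (adjusted p = 0.00408), Chchd1, in the small subunit, fell by 4.04 (adjusted p = 0.027), and the GTP-binding small-subunit protein Dap3 fell by 1.93 (adjusted p = 0.00795). The MII minus MI call of Gadd45gip1 was lost without MI 2 (adjusted p = 0.0753) and with probe sets averaged (0.0506). The MII minus GV call of Chchd1 was lost without GV 1 (0.0797), GV 2 (0.0846), MII 1 (0.0856) or MII 3 (0.0843). The fourth, Ptcd3, had 879, 1158 and 1003 units on MII arrays, against 734, 411 and 151 on GV arrays, and did not pass (log2 change 1.44, adjusted p = 0.141). It was named after its values were seen.

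Of 16 mitochondrial translation factors and tRNA-modifying enzymes, 4 fell from MI to MII (25%, beside 6.83% of all genes), 0 rose and the median was -1.09. From GV to MII 3 fell (18.8%, beside 8.94% of all genes), 0 rose and the median was -0.93. Tufm, the mitochondrial elongation factor Tu, had 5.89, 3.34 and 7.0 units on MII arrays, against 318, 138 and 429.6 on GV arrays (log2 change -3.74, limma adjusted p = 0.0019). Mto1, which modifies mitochondrial tRNAs, had 181, 49.2 and 14.8 units on MII arrays, against 905, 1485 and 263 on MI arrays (log2 change -3.31, adjusted p = 0.0384). Mrrf, the ribosome recycling factor, fell by 3.68 (adjusted p = 0.0477) with 18.8, 12.4 and 28.9 units on MII arrays, against 296, 2052 and 129 on MI arrays. Pdf, which removes the formyl group from new mitochondrial proteins, fell by 2.36 (adjusted p = 0.00636). The MII minus MI call of Mrrf was lost without any single array but MI 3 (adjusted p between 0.0544 and 0.126), that of Mto1 without any but MI 3 and MII 1 (0.0564 to 0.120), and both in the fit of MI and MII alone (0.0862 and 0.0906). Of the 3 calls in MII minus GV, that of Mto1 was lost without GV 2, GV 3, MII 2 or MII 3 (0.0513 to 0.0558) and that of Pdf without any 1 GV array (0.0602 to 0.0870), with a pseudocount of 1 (0.0815), with an intensity trend (0.135) and in the fit of GV and MII alone (0.0687).

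Of the 26 genes for assembly of the mitochondrial ribosome and modification of its RNA, 3 fell (11.5%, beside 6.83% of all genes) and 1 rose (3.85%, beside 2.52%) from MI to MII, with a median of -0.09. From GV to MII 4 fell (15.4%, beside 8.94%) and 3 rose (11.5%, beside 5.52%), with a median of -0.29. Mettl17, an assembly factor, had 619.5, 2542 and 461 units on MII arrays, against 50.5, 8.30 and 97.3 on MI arrays (log2 change 4.02, limma adjusted p = 0.0336). Nsun4, an RNA methyltransferase, had 425, 284 and 116 units on MII arrays, against 2159, 1511 and 877 on MI arrays (log2 change -2.47, adjusted p = 0.0198). Mtg1, a GTPase of large-subunit assembly, fell by 2.05 (adjusted p = 0.0144). From GV to MII Malsu1, an assembly factor of the large subunit, fell by 3.87 (adjusted p = 0.018) and Grsf1, of the mitochondrial RNA granules, fell by 3.06 (adjusted p = 0.00747). Beside Mettl17, those that rose over this span were Mettl15, a methyltransferase of mitochondrial ribosomal RNA (2.79, adjusted p = 0.0106), and Mterf3 (2.63, adjusted p = 0.0294), named after their values were seen. In MII minus MI, the call of Mettl17 was lost without GV 2, MI 1, MI 2 or any 1 MII array (adjusted p between 0.0555 and 0.107) and with a pseudocount of 1 (0.0993), that of Nsun4 without MI 1 (0.0643) or MI 2 (0.0679), with probe sets averaged (0.0552) and in the fit of MI and MII alone (0.0578), and that of Mtg1 without MII 3 (0.0502). In MII minus GV, the call of Mettl17 was lost without GV 2, GV 3 or MII 2 (0.0537 to 0.0572), that of Malsu1 without any 1 GV array or MII 2 (0.0530 to 0.0596) and that of Mterf3 without any 1 GV array, MII 2 or MII 3 (0.0724 to 0.0851).

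Cytosolic ribosomal protein genes, which encode the ribosome on which all of these messages are translated, had lower medians. Of the 42 measured, 34 fell (81%) from MI to MII with a median log2 change of -3.00. This compares with 26 of 76 (34.2%) and -1.67 for the mitochondrial family, and with 6.83% of all genes. From GV to MII 35 fell (83.3%) with a median of -3.41, beside 41 of 76 (53.9%) and -2.33, and 8.94% of all genes. None of the 42 rose. The difference between the lists was not tested.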

How the data were processed

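Per the labels' protocols, mRNA bound to polysomes was cleaned on RNeasy columns, amplified with a NuGEN system for degraded RNA, labelled with biotin and hybridised to 9 arrays, 3 for each of the GV, MI and MII stages. The authors deposited 1 table of intensity values on a linear scale, with 45101 probe sets; how probes were summarised, corrected and scaled is not given in the sources used here, and 0 further columns of per-sample values were present. Control probe sets (64), probe sets with several symbols (932) and with none (9160) were left out, which kept 34945 probe sets for 18193 genes, of which 18032 and all 76 members were found in a RefSeq table of GRCm38.p6. Symbols of members were the same in both.

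Intensities were transformed to log2(intensity + 16) without further normalisation. A model with a mean for each stage was fitted over the 9 arrays in R 4.3.3 by limma 3.58.1 (lmFit, eBayes), two-sided, with Benjamini-Hochberg adjustment over 18193 genes and a threshold of 0.05; intervals are 95% intervals of the fit, and folds, taken after adding 16 units, are too small for dim genes. The script was tested on simulated data with 200 changed genes.

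The members and lists were chosen with earlier results of these data known. Named are members that passed with a rise, the 10 largest falls per comparison among those that passed, the 5 smallest p where fewer than 5 passed, members with a log2 change above 0.5 from MI to MII, members within 0.5 of both earlier stages, the S18 paralogs and Mrps30, and up to 3 genes per other list; others are said to be chosen from their values or stand in counts. Same-numbered samples of different stages correlated at 8e-04 to 0.22 over 9 pairs in their deviations from the stage means. Differently numbered samples correlated at -0.25 to 0.11. The main fit did not take the replicate numbers to pair the samples, and counts with the number as a block are given below.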

Additional observations from a re-analysis of the deposited data

How the results depend on the processing

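The members' counts and medians were recomputed under 9 other settings and without each array in turn. MI minus GV gave 0 members in either direction throughout. In MII minus MI, 17 members fell in the fit of those stages alone, 15 to 24 with 1 array left out and 17 to 31 under the other settings, and 1 rose in each. Over all genes, 872 fell in the fit of those stages alone, 645 to 1224 with 1 array left out and 872 to 1391 under the other settings. In MII minus GV, 27 to 40 members fell with 1 array left out, beside 1156 to 1743 of all genes. Members that rose numbered 2 when genes below the median signal were left out, 3 after quantile normalisation, 3 with the same 95th percentile, 3 with probe sets averaged, and 1 to 2 with 1 array left out. With all probe sets of a gene averaged, the median changes were -1.16 (all members) and -1.08 (Mrpl) in MII minus MI, and -1.38, -1.30 (Mrpl) and -1.40 (Mrps) in MII minus GV. With 1 array left out, Mrps18b ranged from -0.0408 to 0.30 and Mrps18a from -0.42 to 0.0901 in MI minus GV, and Mrpl50 from -0.20 to 0.49 in MII minus GV; Mrpl50 was 0.0131 in MII minus MI with probe sets averaged. The cause was not tested.

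Of 756 recomputed values of 42 named changes of members, 722 kept their direction and side of the threshold, 27 lost the call, 1 gained it and 6 turned sign. For 22 changes of genes of other lists and of members named from their values, recomputed as an addition after seeing the data, 327 of 396 values did so, 61 lost the call, 8 gained it and 0 turned sign. Only changes that passed with all arrays could lose the call, and the MI minus GV changes among the 42 did not pass. Leaving out an array of a stage outside the comparison cannot alter an estimate, so these totals overstate how stable the calls were. With the replicate number as a block, 24 members fell and 1 rose in MII minus MI, and 39 fell and 1 rose in MII minus GV; 5 arrays correlated best with their own number, and the block changed none of the 42 member calls, while it ended those of Mrrf (adjusted p = 0.0657) and Mettl17 (0.0633) in MII minus MI and of Pdf (0.0504) and Mterf3 (0.0640) in MII minus GV. Over all genes, 819 rose and 1145 fell in MII minus MI after quantile normalisation and 773 and 1128 with the same 95th percentile, beside 459 and 1243 as deposited; with a pseudocount of 1 they were 188 and 948. In MII minus GV, 1338 rose and 1527 fell, 1370 and 1492, and 634 and 1382 under the same settings, beside 1004 and 1627. The table holds no detection calls, so signal over background could not be judged for dim members.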
